A study of Drosophila melanogaster with 4 samples.

Results

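salm (spalt major) and salr (spalt related) are neighbouring genes on chromosome arm 2L of Drosophila melanogaster. The regions described here are those enriched for H3K4me1, the mono-methylation of lysine 4 of histone H3, that overlapped the stretch from the first to the last base of the gene pair plus 20 kb on each side, a window of 127 kb. Of the enriched regions in the series, 12 of 7601 in replicate 1, 10 of 7401 in replicate 2 and 15 of 8219 on the combined list met this rule. Chromatin came from whole, formaldehyde-fixed embryos of the wild-type strain Oregon-R-modENCODE, staged 14 to 16 h, and was precipitated with the antibody ab8895, of a batch labelled new lot 2. The series has 2 ChIP libraries, replicates 1 and 2, and 2 input libraries of genomic DNA, whose values were not analysed here. Nothing in the labels says that the replicates came from separate embryo collections, so their spread may be technical.

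The spalt genes encode zinc-finger transcription factors of the family that vertebrates carry as Sall genes. In the embryo they act in the identity of head and tail segments, in the tracheal trunk, in the oenocytes and in parts of the nervous system, and in the wing disc they respond to the signal Dpp. H3K4me1 is found at enhancers and beside active promoters, where it often extends over broad stretches around a gene's start. Both genes are therefore surrounded by sequence in which this mark can be followed from promoter-near to distant positions. In whole embryos, a mark carried strongly by few cells and one carried weakly by many cells cannot be told apart. No marker gene could be used to check the labelled material, because only enriched regions were measured.

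Each list gives the first and last base of a region on FlyBase release 5 and a score on a log2 scale with its own constant in each list. A difference between scores is thus meaningful within a list, while an SD over both replicates also contains the difference between their constants. The sources used here do not give the sequencing depth. All samples are of a single condition, so no test between groups could be made, and differences are set against the spread of the 2 replicate lists. The genes are given on release 6, and the rule takes positions on 2L to agree between the releases. Moving all gene ends of 2L along the arm bore this out to about 1 kb: 40.1%, 37.7% and 43.3% of the ends lay in regions of replicate 1, replicate 2 and the combined list at the positions as given, against 37.6%, 35.8% and 41.5% after a shift of 2 kb in one direction and 37.3%, 35.5% and 40.9% in the other. The gene table gives no strand, so the ends of each gene are called outer (facing away from the other spalt gene) and inner (facing it).

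The strongest H3K4me1 enrichment at the spalt genes lay over the outer end of each gene. Over the outer end of salr, the region ran on 2L from 11356146 to 11360328 in replicate 1, with a score of 1.54. In replicate 2 it ran from 11356491 to 11360310, with a score of 1.42, and in the combined list from 11356077 to 11360358, with a score of 1.45. These are the highest scores of the window in all of the lists. Among the regions of 2L the salr region ranked 18 of 1366 in replicate 1, 40 of 1312 in replicate 2 and 23 of 1485 on the combined list.

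This rank went with a moderate width. The width of the salr region was 4183 bp in replicate 1, 3820 bp in replicate 2, and 4282 bp on the combined list, and 63.3%, 61.1% and 63.3% of the 2L regions of these lists were narrower. Wider regions tend to have higher scores in these lists. Of the 866 regions of 2L that were no wider than it in replicate 1, 1 had a higher score. In replicate 2 this held for 2 of 803 regions, and in the combined list for 2 of 941. No region of such a set is wider than the salr region, so this choice favours a high place for it.

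The outer end of salm carried the widest region of the window. It ran from 11444114 to 11451601 in replicate 1 (7488 bp, score 1.31), from 11444370 to 11450209 in replicate 2 (5840 bp, score 1.25) and from 11444117 to 11451686 in the combined list (7570 bp, score 1.20). On 2L it ranked 97, 126 and 119 by score in these lists. Compared with the salr region it was wider in both libraries and lower in score in both libraries. The score of the salr region minus that of the salm region was 0.23 in replicate 1 and 0.17 in replicate 2, a mean of 0.20 ± 0.043 (SD, n = 2). In width, salr minus salm came to -3305 bp in replicate 1 and to -2020 bp in the other, and both differences exceeded their spread. By the same kind of count the salm region was less extreme. Of the 1162 regions no wider than it, 42 scored higher in replicate 1. The counts were 43 of 1030 in replicate 2 and 50 of 1233 on the combined list.

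**Figure D1:**
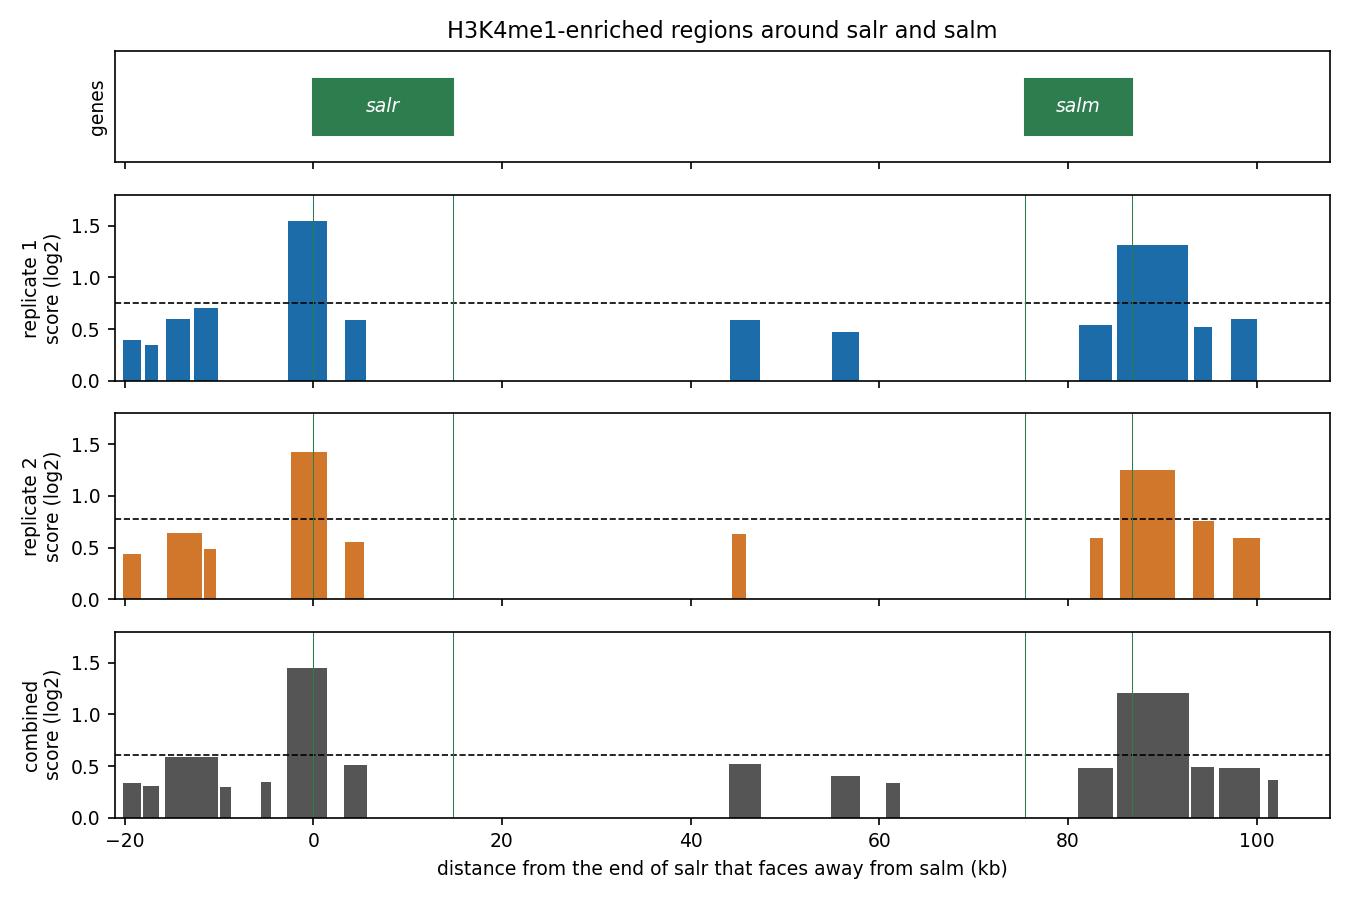
Enriched regions around salr and salm in each list, by distance from the outer end of salr in kb (horizontal axis). Bars give the extent and the log2 score of each region, dashed lines give the median score of all 2L regions of that list (0.75, 0.78 and 0.61), green bars mark the genes, and thin vertical lines mark their ends. In each list 2 regions rise above the dashed line, and they sit over the outer ends of the genes.

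Apart from these outer-end regions, enrichment in the window was weak. In each list exactly 2 regions scored above the median of 2L, and they were those over the outer ends. The other 10 regions of replicate 1 scored between 0.35 and 0.70, under a 2L median of 0.75. The other 8 of replicate 2 scored between 0.43 and 0.76, under a median of 0.78, and the other 13 of the combined list between 0.30 and 0.59, under a median of 0.61. No region of the window filled the interval between these values and the lower of the outer-end scores in the same list.

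**Figure D2:**
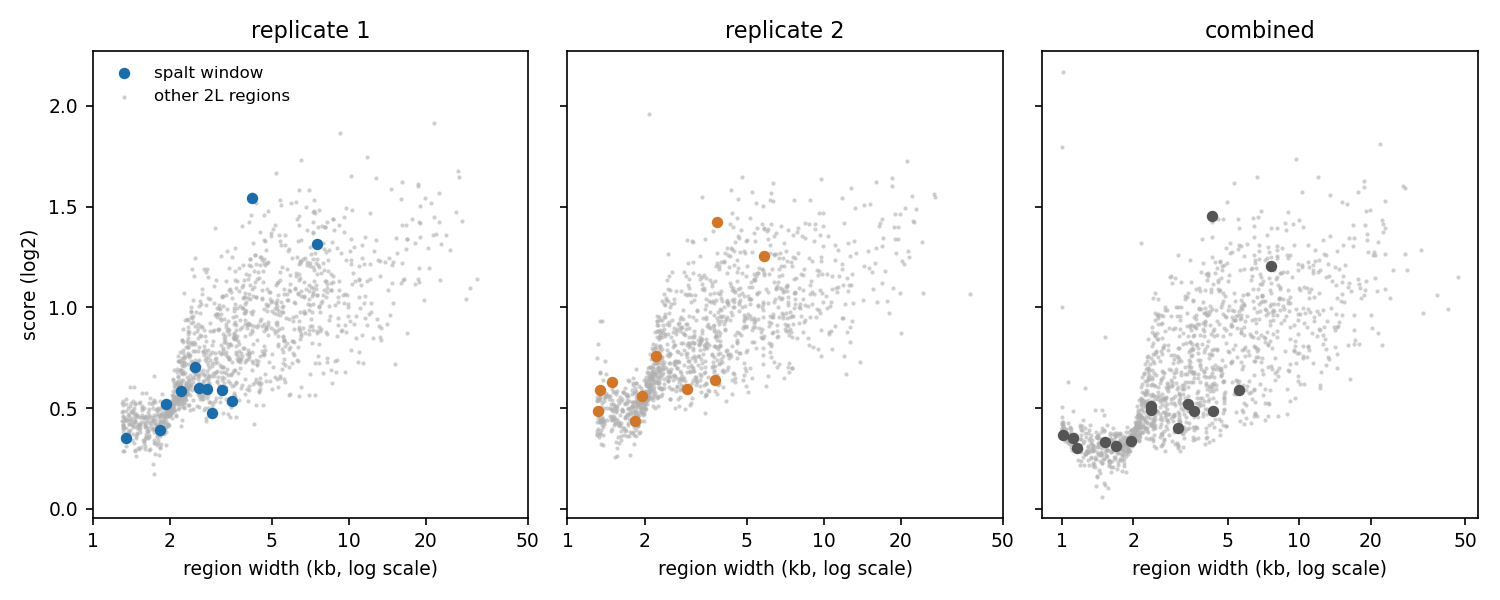
Score (log2, vertical axis) against width (kb, log axis) of the enriched regions of 2L in each list, with the regions of the spalt window in colour. The salr outer-end region stands near the upper edge of the cloud at its width, at 1.54 in replicate 1, 1.42 in replicate 2 and 1.45 on the combined list.

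When regions were aligned on the outer ends, salr and salm showed a like arrangement inside the gene. The outer-end region reached 1.46 kb into salr in replicate 1, 1.44 kb in replicate 2 and 1.49 kb on the combined list. Into salm it reached 1.50 kb, 1.24 kb and 1.50 kb in these lists. A second, weaker region followed after a break. In salr it spanned 3.35 to 5.55 kb from the outer end in replicate 1 (score 0.59), 3.41 to 5.36 kb in replicate 2 (score 0.56) and 3.27 to 5.64 kb in the combined list (score 0.51). In salm it spanned 2.09 to 5.58 kb in replicate 1 (score 0.54), 3.05 to 4.39 kb in replicate 2 (score 0.59) and 2.02 to 5.63 kb in the combined list (score 0.48).

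Beyond the outer ends the genes differed. The salr region continued 2.73 kb outward in replicate 1, 2.38 kb in replicate 2 and 2.80 kb on the combined list. At salm it continued further, 5.99 kb, 4.60 kb and 6.07 kb outward. At both genes most of the outer-end region lay outside the gene. The next region beyond salr began 10.1 kb out in replicate 1 and 10.3 kb out in replicate 2, and the combined list had one already at 4.48 kb. Beyond salm it began 6.60 kb out in replicate 1 and 6.51 kb out in replicate 2, close to the edge of the outer-end region.

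**Figure D3:**
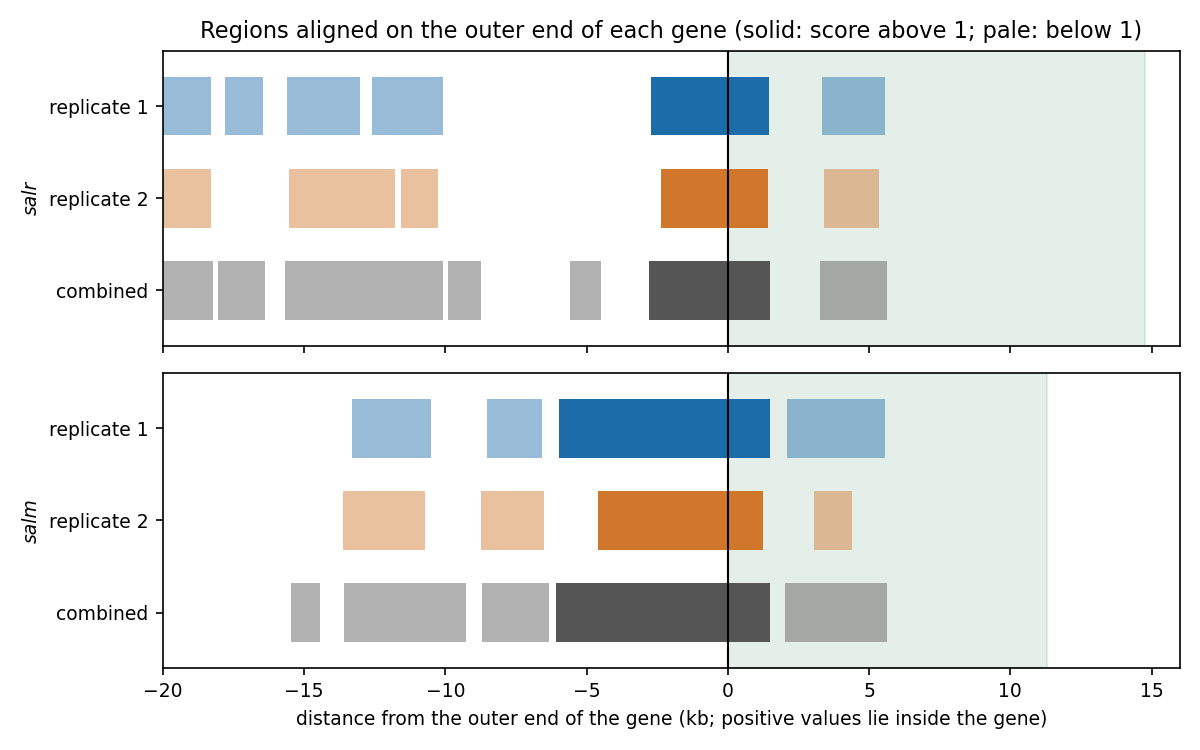
Regions of each list aligned on the outer end of salr (upper panel) and of salm (lower panel), by distance in kb, with positive values inside the gene and the gene body shaded. Solid bars have scores above 1 and pale bars below 1; in both genes a solid bar crosses the outer end and reaches 1.24 to 1.50 kb inward, and a pale bar follows that ends by 5.64 kb.

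The inner ends of both genes lay outside every region. From the inner end of salr the nearest region was 9.21 kb away in replicate 1, 9.40 kb in replicate 2 and 9.12 kb on the combined list. From the inner end of salm these distances were 5.73 kb, 6.92 kb and 5.67 kb. Each gene thus had exactly 1 of its ends inside a region, in all of the lists. This was common on the arm: of the 347 genes of 2L that measure at least 10 kb, exactly 1 end lay inside a region for 53.3% in replicate 1, 53.6% in replicate 2 and 54.5% on the combined list. The pattern of ends is therefore not particular to the spalt genes.

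The bodies of salr (14764 bp) and salm (11304 bp) were covered in part. Regions covered 24.8% of salr in replicate 1, 23.0% in replicate 2 and 26.2% on the combined list, with a mean over the replicates of 23.9% ± 1.29 (SD, n = 2). Of salm they covered 44.1% in replicate 1, 22.8% in replicate 2 and 45.2% on the combined list, a mean of 33.5% ± 15.1. The salm values of the replicates lay far apart because the second region of the gene was 3489 bp wide in replicate 1 but 1335 bp in the other, and the outer-end region ended 256 bp earlier inside the gene in replicate 2. The difference between salm and salr, 19.4 percentage points in replicate 1 and -0.137 in replicate 2, did not exceed its spread.

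Sequence between the genes, 60.7 kb long, was the part of the window with the least enrichment. Regions covered 10.1% of it in replicate 1, 2.46% in replicate 2 and 13.2% on the combined list, and 6.28% ± 5.40 in the mean of the replicates. Only 1 region there was common to both replicates. It ran from 11403061 to 11406267 in replicate 1 (score 0.59) and from 11403230 to 11404721 in replicate 2 (score 0.63). This region lies midway between the genes, 29.4 kb from salr and 28.0 kb from salm in replicate 1, and 29.6 kb from each in replicate 2. A second one, from 11413850 to 11416769 with a score of 0.48, was listed in replicate 1 and not in replicate 2. Another, from 11419569 to 11421090 with a score of 0.33, was listed in the combined list and in neither replicate.

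Long stretches without any region separated these. The longest ran from 11364427 to 11403060 in replicate 1 (38.6 kb), from 11364237 to 11403229 in replicate 2 (39.0 kb) and from 11364517 to 11402895 in the combined list (38.4 kb). It takes in 62.4%, 63.7% and 61.8% of salr, with its inner end, and the whole of the long non-coding RNA gene lncRNA:CR43681. Its length ranked 90 of the 1364 stretches without regions on 2L in replicate 1, 102 of 1311 in replicate 2 and 89 of 1484 on the combined list. The next longest ended inside salm and took in 50.6% of that gene in replicate 1, 61.2% in replicate 2 and 50.2% on the combined list. It measured 23.3 kb in replicate 1 and 36.5 kb in replicate 2, where the region at 11413850 was not listed.

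The flanks beyond the genes held most of the covered sequence. Regions covered 54.6% of the 20 kb beyond salr in replicate 1 and 45.8% in replicate 2, a mean of 50.2% ± 6.20 (SD, n = 2). They covered 53.6% and 48.7% of the 20 kb beyond salm, a mean of 51.2% ± 3.44. Both flanks together were covered to 50.7% ± 4.82, and the gene pair from its first to its last base to 12.8% ± 5.96. The flanks exceeded the sequence between the genes by 44.0 percentage points in replicate 1 and 44.8 in replicate 2 (mean 44.4 ± 0.583), a difference far above the spread between replicates. The flanks were also covered more than the whole of 2L, at 26.4% ± 1.70, by a mean of 24.3 ± 3.12 percentage points and in both libraries. The sequence between the genes minus 2L came to -20.1 ± 3.71 percentage points, again with the same sign in both. The arm is not a like background for sequence beside genes. For all 2L genes taken with 20 kb on each side, the median cover was 32.3%. Flanks alone were not measured for other genes, so high flanks are not shown to be particular to the spalt genes.

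**Figure D4:**
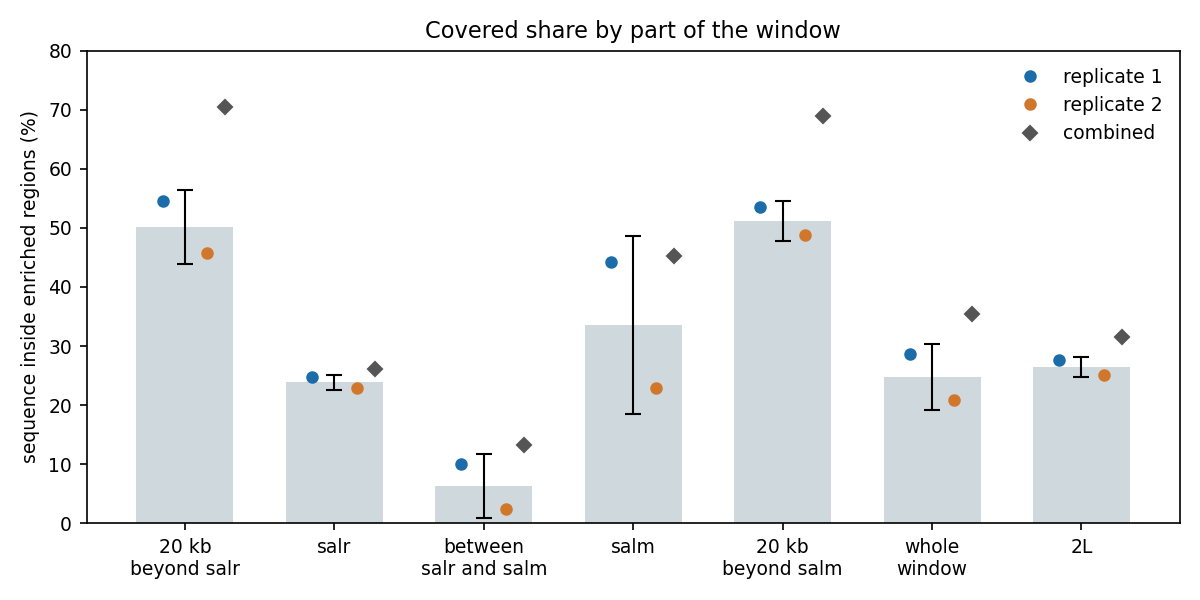
Share of sequence inside enriched regions (%) for parts of the spalt window, the whole window and arm 2L. Bars and whiskers give the mean and SD of the 2 replicate lists, circles the replicates and diamonds the combined list; the flanks stand at 50.2% and 51.2%, and the sequence between the genes at 6.28%.

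The flank beyond salr held a run of weak regions more than 10 kb from the gene. In replicate 1 these were 4 regions with scores of 0.39, 0.35, 0.60 and 0.70. In replicate 2 they were 3 regions with scores of 0.43, 0.64 and 0.49. The combined list joined the inner ones into a region of 5596 bp, from 11343197 to 11348792, with a score of 0.59. CG14926, a protein-coding gene of 1018 bp in this flank, was covered to 18.0% in replicate 1, 0% in replicate 2 and 31.4% on the combined list. lncRNA:CR44585 was covered to 45.4%, 45.7% and 68.6%. lncRNA:CR44586 lay wholly inside a combined region from 11353278 to 11354393 with a score of 0.35, while no region of either replicate touched it.

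Beyond salm, the flank is largely taken up by lncRNA:CR46454, a long non-coding RNA gene of 18717 bp. It was covered to 44.2% in replicate 1, 39.0% in replicate 2 and 60.6% on the combined list. The outer-end region of salm extended into it in every list. Further out, a region from 11452209 to 11454143 scored 0.52 in replicate 1, where the 2L median was 0.75. Its counterpart in replicate 2, from 11452121 to 11454340, scored 0.76, where the 2L median was 0.78. The outermost regions of the replicates, 11456139 to 11458935 and 11456320 to 11459250, both scored 0.59.

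The replicates listed much the same regions but not the same extents. Of the 12 regions of replicate 1, 10 overlapped a region of replicate 2 (83.3%, exact Clopper-Pearson interval 51.6 to 97.9), beside 86.5% of all 2L regions of that replicate. All 10 regions of replicate 2 overlapped a region of replicate 1 (interval 69.2 to 100), beside 95.4% on 2L. These shares are near those of the arm. The intervals cover counting error only. The regions of replicate 1 without a partner had scores of 0.35 and 0.48.

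In 8 cases a region of one replicate matched a single region of the other. Replicate 1 was wider in 6 of the 8. Its regions were also wider at the median on 2L, at 3233 bp against 3022 bp in replicate 2. Matched pairs were not counted on the arm, so the 6 of 8 is no result about the window. Scores of the 8 pairs are not set against each other, since each list has its own constant. For the salr outer-end region the shared sequence made up 91.3% of the sequence listed by either replicate, and for the salm outer-end region 78.0%. The least alike in extent were the second region of salm, with 38.3% shared, and the region between the genes, with 46.5%.

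By base pairs, 67.7% of the window sequence listed by either replicate was listed by both, against 83.3% on 2L. The share was 92.6% in salr, 51.7% in salm, 24.4% between the genes, 77.1% in the flank beyond salr and 80.8% in the flank beyond salm. Sequence listed by replicate 1 alone came to 11061 bp and that listed by replicate 2 alone to 1021 bp. Across 2L, too, replicate 1 covered more than replicate 2, with 27.6% against 25.2%. Sequence listed by a single replicate came there to 828612 bp (replicate 1) and 276630 bp (replicate 2). The imbalance was thus relatively stronger in the window. The part of read depth in this was not tested.

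The combined list added weak regions. Of its 15 regions in the window, 9 overlapped a region of both replicates (60.0%, exact Clopper-Pearson interval 32.3 to 83.7), beside 72.1% of all combined regions on 2L. A further 2 (13.3%, beside 10.9% on 2L) overlapped replicate 1 alone, with scores of 0.31 and 0.40. The remaining 4 (26.7%, beside 13.9% on 2L) overlapped neither, were 1014 to 1522 bp wide and scored 0.30 to 0.37. The interval for the 9 regions includes the share of the arm. It covers counting error only and takes neighbouring regions as independent.

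Over its whole length, the spalt window was covered to 28.7% in replicate 1, 20.8% in replicate 2 and 35.4% on the combined list, against 27.6%, 25.2% and 31.5% of 2L. The mean of the replicates was 24.8% ± 5.60 in the window (SD, n = 2), and window minus arm came to 1.15 percentage points in replicate 1 and -4.37 in replicate 2. The window thus did not differ from the arm beyond the spread. When 2L was laid out in 181 stretches of the window's length from its first base, 53.6% of them in replicate 1, 40.9% in replicate 2 and 57.5% on the combined list were covered less than the window. The window and the arm differed in the make-up of their regions. Those of the window were more numerous, with 86.8 ± 11.2 per Mb in the window and 58.2 ± 1.66 per Mb on 2L, and the window exceeded the arm by 35.3 per Mb in replicate 1 and by 21.9 in the other. The regions were also shorter, with a median width of 2394 ± 436 bp in the window and 3128 ± 149 bp on 2L. Their median score, 0.60 ± 0.016 in the window and 0.77 ± 0.017 on 2L, was lower in both libraries, at -0.17 for window minus 2L in each. These traits are not particular to the spalt window, since the window of mid and H15, described next, had them too in both libraries.

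Of the 4 pairs of neighbouring transcription factor genes on 2L that were taken with 20 kb on each side, the spalt pair had the lowest mean cover, both over the window and between the genes. The window of nub and pdm2, POU genes of neural and wing development, was the most alike in cover. The spalt window was covered to 24.8% ± 5.60 and that of nub and pdm2 to 28.9% ± 0.909, and their difference of -4.15 ± 4.69 percentage points lay within its spread. The sequence between the genes was poor in regions in both pairs. It was covered to 6.28% ± 5.40 between the spalt genes and to 8.86% ± 0.197 between nub and pdm2. This difference, 1.10 percentage points in replicate 1 and -6.26 in replicate 2 (mean -2.58 ± 5.20), also lay within its spread. On the combined list the spalt pair was the higher, with 13.2% against 9.14%. Scores set the windows apart, since the median score was 0.60 ± 0.016 in the spalt window and 0.92 ± 0.00029 in that of nub and pdm2. The top score went the other way, with 1.48 ± 0.086 in the spalt window and 1.21 ± 0.035 in that of nub and pdm2.

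At mid and H15, T-box genes of cardiac and epidermal development, more sequence was enriched and the strongest region was weaker. The cover of the spalt window minus that of mid and H15 was -11.7 percentage points in replicate 1 and -11.0 in replicate 2, a mean of -11.3 ± 0.550. Between the genes the share was 6.28% ± 5.40 at the spalt pair and 43.9% ± 6.03 at mid and H15. The top score was higher at the spalt pair, by 0.45 ± 0.043. Regions at the spalt pair were fewer per Mb than those at mid and H15, wider at the median and higher in median score, in both libraries. Their number was 94.7 per Mb at the spalt pair and 125.8 per Mb at mid and H15 in replicate 1, and 78.9 and 96.8 per Mb in replicate 2. Median widths were 2702 bp at the spalt pair and 2172 bp at mid and H15 in replicate 1, and 2086 and 2000.5 bp in replicate 2. On the combined list number and width went the other way. It had 118.4 regions per Mb at the spalt pair and 106.5 at mid and H15, with median widths of 2378 and 3380 bp. The median score was 0.60 ± 0.016 at the spalt pair and 0.53 ± 0.019 at mid and H15, and the spalt pair was the higher in both libraries, by 0.065 ± 0.0029. The window of slp1 and slp2, forkhead genes of segmentation, was nearly filled. Cover was 24.8% ± 5.60 at the spalt pair and 81.6% ± 7.96 at slp1 and slp2, and the whole of the 9.74 kb between slp1 and slp2 was inside regions in every list. The top scores of these windows, 1.48 ± 0.086 at the spalt pair and 1.49 ± 0.086 at slp1 and slp2, differed by less than their spread.

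Across a list of 19 developmental transcription factor genes of 2L, salr and salm stood among the less covered gene bodies. The median of the list was 91.9%, against 16.1% for all 3496 genes of 2L, and 13 of the 19 were covered to at least 50%, against 38.4% of all 2L genes. Neither spalt gene reached 50%. In the mean of the replicates, 1 of the 19 genes was covered less than salr and 2 were covered less than salm. H15 (26.7% ± 19.3) and dac (18.9% ± 6.32), a transcription cofactor gene of eye and leg development, were the genes below salm, and dac was also below salr. Of the 10 genes of the list that measure at least 10 kb, as both spalt genes do, 4 were covered to at least 50%. This is near the 38.4% of all 2L genes, and the share for long 2L genes alone was not computed. The median of these 10 was 38.0%, and all 2L genes of that length had a median of 21.8%. On that scale salr (23.9%) was near the median of the long genes of the arm and salm (33.5%) above it. Of these long genes, 53.9% were covered less than salr and 61.4% less than salm. The higher place of salm rests on replicate 1, with 44.1%, while replicate 2 gave 22.8%, close to that median. With the gene positions moved by 2 kb along the arm, salr came to 14.1% and salm to 51.2% in one direction, and salr to 37.4% and salm to 21.3% in the other, so neither this placing nor the order of the genes holds under such a shift. For salm the replicates differ on its place in the list, since 6 of the 19 genes were covered less than salm in replicate 1 and 2 in replicate 2.

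To the spalt window, with its cover of 24.8% ± 5.60, the closest genes of this list, taken with 20 kb on each side, were H15 (25.2% ± 7.67), esg (25.2% ± 8.06) and crol (24.2% ± 0.018). esg encodes a zinc-finger factor of the Snail family, and crol a zinc-finger factor. The likeness is of the mean covered share over 2 libraries only. It sets windows of a single gene beside the longer window of the pair, which includes the sequence between the genes. Taken singly with 20 kb on each side, salr was covered to 24.8% ± 2.61 and salm to 29.7% ± 8.05. Of the 19 genes of the list, 15 were covered more than the spalt window on this measure.

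Of the signalling genes of 2L taken as a second list, 10 were on the arm and magu was not. Dpp and Egfr signalling are known inputs to spalt expression in the wing and in the oenocyte region. Of these 10 genes, 8 were covered to at least 50%, against 38.4% of all 2L genes, and their median was 70.4%, against 16.1%. The 7 of them that measure at least 10 kb had a median of 61.7%, against 21.8% for all 2L genes of that length. The spalt genes were covered to 23.9% ± 1.29 (salr) and 33.5% ± 15.1 (salm). dpp, the BMP-type ligand gene, was covered to 61.7% ± 6.64, its receptor gene tkv to 54.8% ± 5.51 and Mad, which encodes the Smad that carries the signal, to 70.9% ± 2.19. spi, which encodes an Egfr ligand, was covered to 99.1% ± 1.30, and wg, the Wingless ligand gene, to 79.5% ± 0.621. Each of these 5 was above the spalt genes. Wnt6 (9.63% ± 13.3) and Wnt10 (0% in each list) were the genes of this list below both spalt genes.

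**Figure D5:**
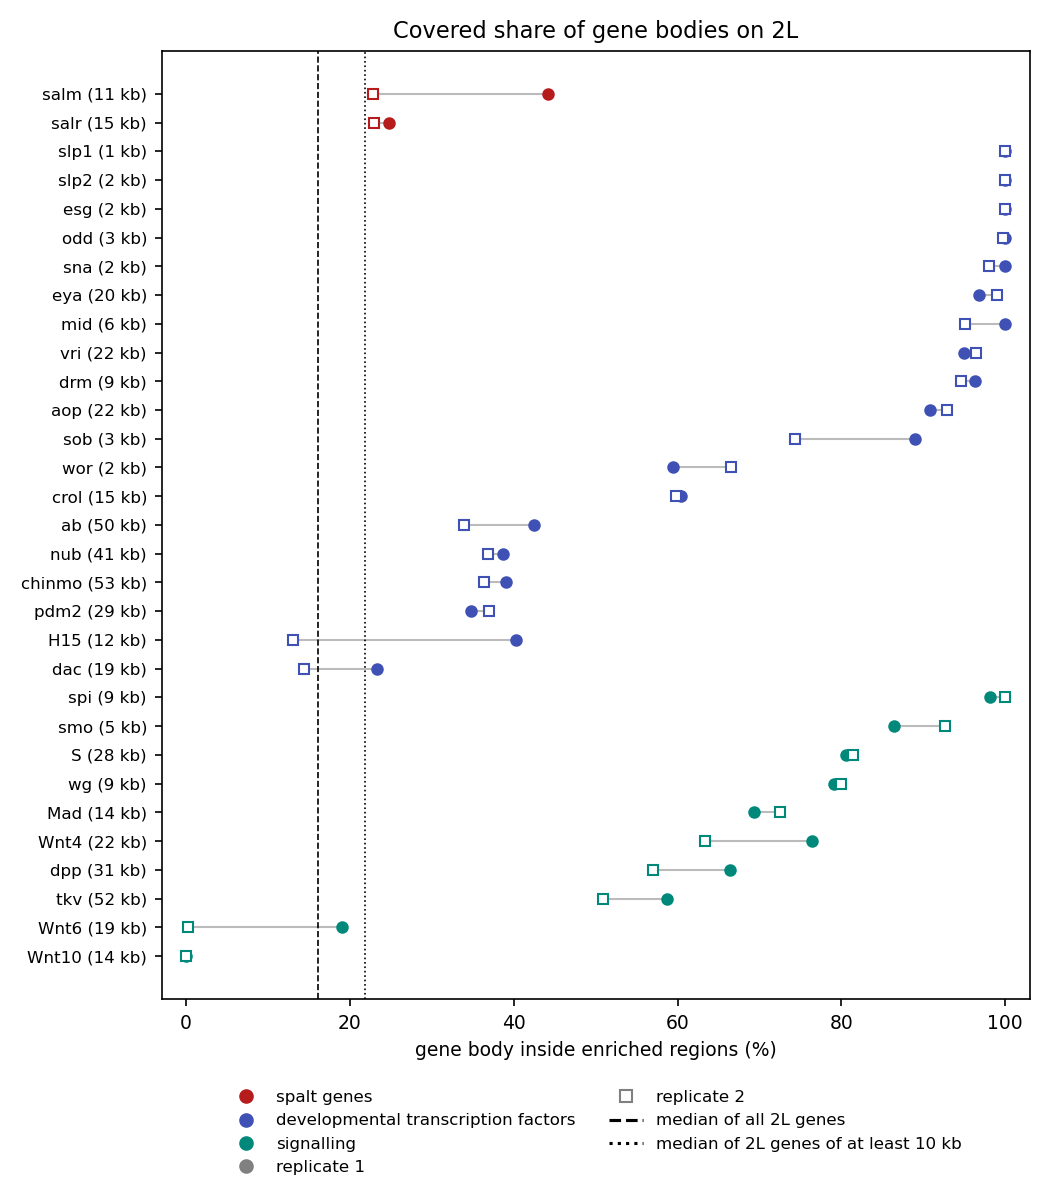
Share of the gene body inside enriched regions (%) for salm and salr, 19 developmental transcription factor genes and 10 signalling genes of 2L, with gene lengths in brackets. Filled circles are replicate 1 and open squares replicate 2; salm spans 22.8% to 44.1% and salr 23.0% to 24.8%, beside medians of 16.1% for all 2L genes and 21.8% for those of at least 10 kb.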

How the data were processed

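H3K4me1 ChIP-seq of whole embryos was analysed from lists of enriched regions. The authors deposited 1 list per ChIP library and 1 combined list, with positions on FlyBase release 5 per the file headers. Each region has a score, which is a log2 value in the lists the authors deposited: with base 2, the scores were rational multiples of one another (denominators up to 20000, relative tolerance 2e-13) in 7601 of the 7601 regions of replicate 1, in 7400 of the 7401 of replicate 2 and in 7819 of the 8219 combined ones, and with base e or 10 for at most 13. Bowtie 0.12.7 was used, per the submitters' processing notes. The sources used here do not say how regions were called, with what cut-off and what use of the input, how replicates were merged or how deep the libraries are. The 1 record named as depleted was left out.

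Gene names, lengths and positions came from the RefSeq table for release 6, of which 3496 genes end within the 2L of the lists. Both spalt genes matched by symbol. Overlap meant at least 1 bp, and covered shares count bases inside any region. Means and SDs are over the 2 replicate lists, and intervals are exact 95% Clopper-Pearson. The lists were assigned to replicates by the repository's record. Python 3.11.15, numpy 2.4.6 and scipy 1.17.1 were used. The overlap step was tested on simulated data of 1366 regions and found 100% of those kept. The members, windows and gene lists were chosen with earlier results of these data known. Named genes were salm, salr, all genes in the window, and the 3 genes of the factor list closest in cover. Alternatives covered the flank, list, score threshold, overlap, joining of regions and gene positions. No sequence was read, since no genome of release 5 was used here.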

Additional observations from a re-analysis of the deposited data

How the results depend on the processing

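Among 52 values recomputed with other choices, 31 stayed within the spread and 21 went beyond it. The spread is the SD between replicates, the exact interval of a share or 1.5 times of a count. With 2 replicates, the value of a single replicate always lies within the SD from their mean. The leave-one-out values among the 31 were thus fixed in advance and say nothing on stability. Shifts of 2 kb could not change the share between the genes, whose edges lie further than that from any region. The 52 values are levels, with no sign of their own. Without a flank, the covered share of the spalt window was 12.8% and its combined regions numbered 7. With a flank of 10 kb the median score was 0.64. In the combined list the covered share was 35.4% for the window, 26.2% for salr and 13.2% between the genes, the median score was 0.48, and the medians of the factor and signalling lists were 96.3% and 77.7%. With only the 50% of regions with the highest scores in each list kept, 2 combined regions were left, both over outer ends. The covered share was then 8.42% for the window, 12.1% for salm, 9.80% for salr and 0% between the genes, the median score 1.38 and the signalling list's median 57.9%. Combined regions numbered 9 when both replicates had to hold them and 8 when regions less than 1 kb apart were joined. With gene positions moved by 2 kb, salr came to 14.1% and salm to 51.2% in one direction, and salr to 37.4% and salm to 21.3% in the other. The order of the genes, and their places beside the 21.8% median of long 2L genes, changed with it, so gene-body shares depend on the releases agreeing.

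Leaving out each replicate in turn gave 20.8% to 28.7% for the window, 22.8% to 44.1% for salm, 23.0% to 24.8% for salr, 2.46% to 10.1% between the genes, 0.59 to 0.61 for the median score, 90.8% to 92.9% for the factor list and 67.9% to 72.9% for the signalling list. The alternatives of these gene lists were chosen after seeing the data. No paired analysis was possible because the lists are of 1 group of ChIP libraries, with no second group to pair. Weak regions may be missed at the unknown depth, so sequence outside regions need not lack H3K4me1.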
